A study of Sorghum bicolor with 9 samples.

Results

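The comparison of severe with moderate saline-alkali soil sets leaves of sorghum plants in soil of 5‰ salt against leaves of plants in soil of 3‰ salt, both at pH 8.1. All genes of the deposited count table entered it, 35281 in number. Of these, 6013 had no count in the 6 libraries and 21779 had enough reads to be tested. All plants were wild-type BTx623, the inbred Sorghum bicolor line from which the reference genome was made, taken at the four-leaf stage. The severe group and the moderate group held 3 biological replicates each, of 9 libraries in the whole series. The remaining 3 libraries came from control plants under normal conditions, for which the labels state neither salt nor pH. The labels contradict each other on the unit of salt, since 1 tag has percent where titles and series design have permille, and the titles were followed. The length of the treatment and the number of plants behind 1 replicate were not given in the labels.

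Salt in the root zone lowers the water potential of the soil and loads the shoot with sodium and chloride, and a high pH adds poor availability of phosphate, iron and other nutrients. Plants answer with abscisic acid (ABA), a hormone that closes stomata and switches on protective genes, with ion transporters that move sodium out of the cytosol, and with chaperones and antioxidant enzymes that limit damage to proteins and membranes. As stress deepens, growth genes commonly give way to genes of protection, nutrient recovery and senescence. Sorghum is a C4 cereal known for tolerance of drought and of poor soils.

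Total counts per library were 17792497 to 21842574 in severe and 17966323 to 22449989 in moderate. The severe libraries resembled each other (Pearson's r over log2 values of genes 0.893 to 0.935) less than the moderate libraries did (0.962 to 0.981). The biological coefficient of variation, the spread between replicates beyond counting noise, was 59.8% in severe and 25.8% in moderate. Severe libraries also held their reads in fewer genes, and the 387, 711 and 814 most abundant genes made up 50% of reads in severe replicates 1 to 3, against 1246, 1317 and 1205 genes in moderate. Severe replicate 1 stood apart, with a TMM normalisation factor of 0.506, against 0.849 and 0.962 in the other severe libraries and 1.31 to 1.39 in moderate. It was the highest severe library in 68.4% of the genes called higher and in 16.1% of those called lower. Levels below are CPM, counts scaled to 1000000 reads of the TMM-adjusted library total, listed in the order of replicates 1 to 3. In these bulk samples fewer cells of a type and less RNA per cell cannot be told apart.

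**Figure D1:**
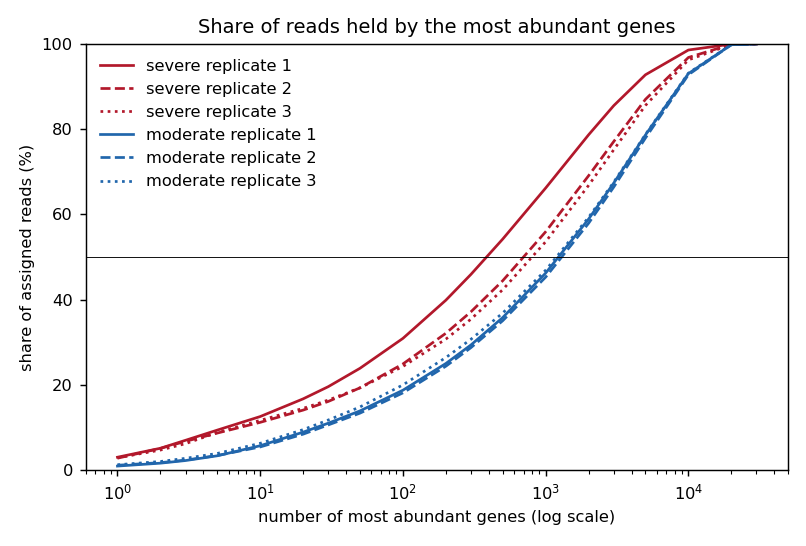
Cumulative share of assigned reads (%) held by the most abundant genes, counted on a log axis, in each of the 3 severe and 3 moderate libraries. The line at 50% is crossed at 387 to 814 genes in severe and at 1205 to 1317 genes in moderate, and severe replicate 1 lies highest.

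More genes than not differed between the soils. Of 21779 tested genes 12085 (55.5%) were called at an adjusted p under 0.05 by the quasi-likelihood test of edgeR, adjusted after Benjamini and Hochberg, 5878 of them higher in severe (27.0%) and 6207 lower (28.5%). At least a 2-fold change was found in 5377 of the higher and 6004 of the lower genes, and at least an 8-fold change in 2047 and 2453. The 3 severe and 3 moderate libraries did not overlap in 15277 genes (70.1%). In 213 called genes no severe library held a count, and in 131 no moderate library did. The median log2 change over all tested genes was -0.18. It was -0.95 with libraries scaled to their total counts only and -0.46 with upper-quartile scaling, and the total-count scaling called 3253 genes higher and 8270 lower (28.2% of calls higher, against 48.6% with TMM). Counts of the families described under total-count scaling are therefore given below wherever they turn the balance of the family. They are to be read against the 3253 higher and 8270 lower of all 21779 genes under that scaling, not against the TMM shares. A turn can follow from this general shift alone. A family that stays lower under it is not a separate check.

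**Figure D2:**
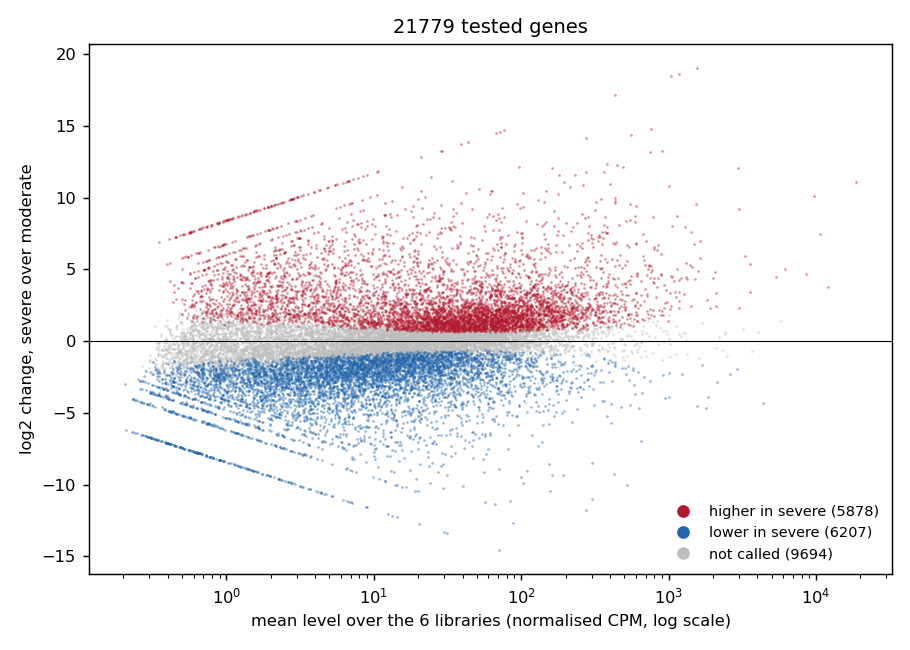
Log2 change, severe over moderate, against the mean normalised CPM of the 6 libraries (log axis) for 21779 tested genes, with genes called higher in severe in red (5878), called lower in blue (6207) and not called in grey. The straight streaks at the upper and lower left edges are genes with no count or a few counts in 1 of the groups, whose log2 change depends on the prior count.

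The table names no gene by function beyond 1 of 636 protein family labels, carried by 11025 genes, of which 7851 were tested. A label tells the family only, not which member acts in which pathway. Counts of members called with all 6 libraries and TMM scaling are set against the shares of all tested genes, 27.0% higher and 28.5% lower. Leaving out moderate replicate 1, 2 or 3 cut the calls over all genes from 12085 to 9536, 9047 and 8537. Of these 4860, 4551 and 4290 were higher and 4676, 4496 and 4247 lower. Smaller family counts without a moderate library are to be read against this general loss of calls. No gene carried a label for light-harvesting proteins, the small subunit of Rubisco, phosphoenolpyruvate carboxylase or Casparian strip proteins, so the leaf label could not be checked against them. The 2 tested KNOX genes, markers of meristem cells, summed to 0.193, 0.863 and 2.99 CPM in severe, against 4.63, 2.97 and 4.41 in moderate. Of replication helicases (MCM), which act in dividing cells, only 2 of 9 genes were tested, and 1 was called lower. These 2 genes summed to 0, 0.27 and 0.761 CPM in severe, against 1.98, 2.39 and 2.58 in moderate, with few counts in severe. Core histones, which also mark dividing cells, summed to 2892, 2144 and 1589 CPM in severe, against 1862, 1796 and 1819 in moderate. Of 32 tested histone genes 7 were higher and 6 lower, turning to 4 and 10 under total-count and 5 and 6 under upper-quartile scaling (11 higher without severe replicate 1 and 1 lower without moderate replicate 3).

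Most tested heat shock factors and HSP70 chaperones were higher in severe soil. Heat shock factors, which switch on chaperone genes when proteins unfold, had 13 of 22 tested members higher and 4 lower, with a median log2 change of 1.84. HSP70 chaperones, which hold and refold unfolded proteins, had 13 of 20 tested members higher and 0 lower, with a median of 1.57. Summed over its 20 tested genes the HSP70 family reached 12815, 5838 and 6644 CPM in severe, against 1869, 2155 and 2037 in moderate. Each severe library was above each moderate library, and severe replicate 1 was the highest. Under total-count scaling the heat shock factors were 9 higher and 5 lower and the HSP70 genes 10 higher and 2 lower. J-domain proteins, the partners that load clients onto HSP70, had 28 of 71 tested members higher and 11 lower, a balance that turned to 14 higher and 21 lower under total-count scaling. Without severe replicate 3 or moderate replicate 1 the lower heat shock factors were 2, without severe replicate 1 the lower HSP70 genes were 1, and without moderate replicates 1, 2 or 3 the lower J-domain genes were 7, 7 and 6.

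The HSP70 gene Sobic.001G418600 (chromosome 1, 69932394 to 69935701) had 507, 173 and 704 CPM in severe, against 0.126, 0.171 and 0.136 CPM in moderate. It was close to silent in moderate leaves, every severe library lay far above every moderate one, and severe replicate 2 was the lowest of the 3. Its choice among the largest rises required that the groups did not overlap. The log2 change was 11.58 (SE 2.36; edgeR adjusted p = 0.000267). A second HSP70 gene, Sobic.001G454000, had 199.8, 69.7 and 172 CPM in severe, against 4.08, 5.33 and 3.53 CPM in moderate, a log2 change of 5.09 (SE 1.15), again with no overlap. The heat shock factor Sobic.001G057700 (chromosome 1, 4366254 to 4370034) had 469, 244 and 408 CPM in severe, against 22.5, 28 and 26.9 CPM in moderate. Its moderate libraries differed little and all severe libraries were higher, with a log2 change of 3.86 (SE 0.88; edgeR adjusted p = 0.000565). A second factor, Sobic.003G194400, had 19.9, 13.3 and 43.5 CPM in severe, against 0.126, 0.205 and 0.102 CPM in moderate, with a log2 change of 7.41 (SE 1.64). The factor Sobic.010G170600 went the other way and had 1.44, 3.08 and 1.41 CPM in severe, against 46.9, 34.6 and 47.6 CPM in moderate, with a log2 change of -4.43 (SE 1.00; edgeR adjusted p = 0.000527). The J-domain gene Sobic.004G207300 had 235, 98.6 and 45 CPM in severe, against 0.0841, 0.0683 and 0.102 CPM in moderate, so that it was barely detected in moderate leaves, with a log2 change of 10.44 (SE 2.25). In the same family Sobic.006G265400 had 21.9, 61.5 and 14.5 CPM in severe, against 378, 362 and 438 CPM in moderate and a log2 change of -3.59 (SE 1.01).

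Among genes of protein turnover, ubiquitin hydrolases were more often higher than lower. Ubiquitin carboxyl-terminal hydrolases (label UCH), which take ubiquitin off proteins, had 14 of 28 tested members higher and 2 lower, with a median of 0.80. The higher ones were 9 without moderate replicate 1 and 8 without moderate replicate 3, the lower ones 1 without moderate replicates 1 or 2, and total-count scaling gave 5 higher and 3 lower. Proteasome subunits had 9 of 23 tested members higher and 2 lower, but 0 higher and 4 lower under total-count scaling, and 5, 4 and 4 higher without moderate replicates 1, 2 and 3 (1 lower without moderate replicate 3). The hydrolase Sobic.002G042600 had 170.1, 125 and 124 CPM in severe, against 27.8, 37.9 and 34.6 CPM in moderate. All severe libraries were above all moderate ones, with a log2 change of 2.06 (SE 0.53; edgeR adjusted p = 0.00131). Serine carboxypeptidases (label Peptidase_S10), which trim proteins in vacuoles and also acylate small molecules, went the other way in number, with 20 of 36 lower and 7 higher (4 higher without moderate replicate 3). Sobic.008G073900 of this family had 0.963, 2.21 and 1.11 CPM in severe, against 119.6, 107 and 139.6 CPM in moderate, a log2 change of -6.39 (SE 1.29; edgeR adjusted p = 0.000267). Its relative Sobic.001G280200 had 1318, 428 and 136 CPM in severe, against 21.8, 15.2 and 15.7 CPM in moderate, a log2 change of 5.16 (SE 1.47). The summed carboxypeptidase level was 3993, 1842 and 1297 CPM in severe, against 1130, 936 and 1103 in moderate, higher in severe although most members were lower.

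**Figure D3:**
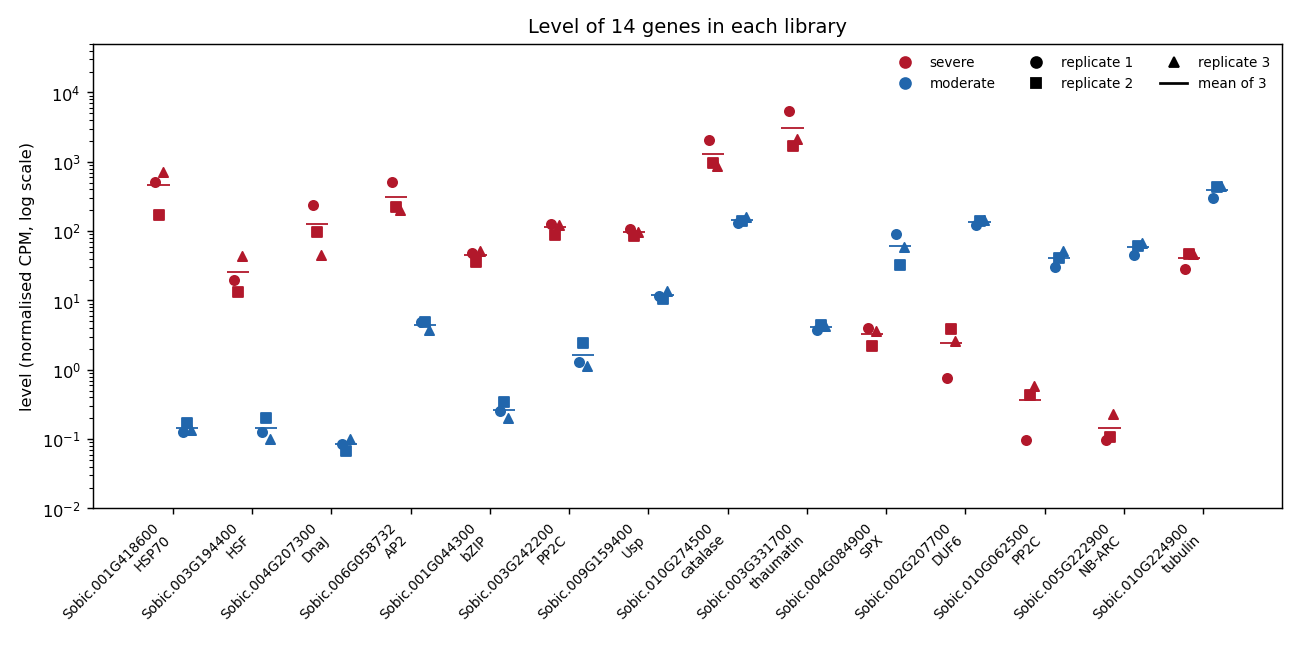
Level of 14 named genes in each library (normalised CPM, log axis), severe to the left of moderate for each gene, with a symbol per replicate and a bar at the mean of 3. In the 9 genes on the left every severe library lies above every moderate one, and in the 5 on the right every severe library lies below.

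Among transcription factors, AP2 and ZIM-domain genes were more often higher than lower, while the balance of NAC, bZIP and WRKY genes turned with the scaling. AP2 and ERF factors, among them the dehydration-responsive DREB factors and the ethylene response factors, had 38 of 83 tested members higher and 12 lower, with a median of 1.25. NAC factors (label NAM), many of which act in senescence and drought, had 25 of 67 higher and 15 lower, a balance that turned to 20 and 22 under total-count scaling. Of 15 tested genes with a ZIM domain (label Zim), the motif of the JAZ repressors of jasmonate signalling, 9 were higher and 1 lower, with a median of 1.90, or 5 and 3 under total-count scaling and 4 and 0 with limma on the deposited FPKM. Leucine zipper factors with the label bZIP_1, some of which bind ABA-response elements, had 23 of 58 higher and 14 lower, turning to 13 and 18 under total-count scaling. WRKY factors were 20 higher and 14 lower of 66, turning to 9 and 24 (17 and 19 under upper-quartile scaling), and MYB factors 42 higher and 42 lower of 137, against 27 and 50. The lower AP2 genes were 7, 6 and 7 without severe replicate 2, moderate replicate 2 and moderate replicate 3, the higher ZIM genes 5 without moderate replicates 2 or 3, the lower ZIM genes 2 without severe replicate 1, and the lower WRKY genes 8 without moderate replicate 3.

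The NAC gene Sobic.003G379700 (chromosome 3, 69351545 to 69356140) had the largest gain in mean CPM among called, labelled genes whose groups did not overlap. It had 15629, 3540.4 and 1593 CPM in severe, against 210.1, 163 and 138 CPM in moderate. Severe replicate 1 was several times the other severe libraries. The groups did not overlap, which the choice of this gene required, and the log2 change was 5.35 (SE 1.67; edgeR adjusted p = 0.00529). The AP2 gene Sobic.006G058732 had 512, 219.6 and 199 CPM in severe, against 4.84, 4.81 and 3.8 CPM in moderate. Both groups were internally even apart from severe replicate 1, and the log2 change was 6.11 (SE 1.33; edgeR adjusted p = 0.000403). The bZIP gene Sobic.001G044300 (chromosome 1, 3302606 to 3305294) had 48.4, 36 and 51.3 CPM in severe, against 0.252, 0.341 and 0.203 CPM in moderate, with a log2 change of 7.38 (SE 1.39; edgeR adjusted p = 0.000267). In contrast the bZIP gene Sobic.004G031100 had 0.0963, 0.27 and 0.351 CPM in severe, against 82, 34.4 and 64.2 CPM in moderate. That is close to silence in severe leaves, at a log2 change of -7.86 (SE 1.62; edgeR adjusted p = 0.000267). The ZIM gene Sobic.001G482800 had 47.1, 20.2 and 25.7 CPM in severe, against 0.252, 0.444 and 0.203 CPM in moderate, a log2 change of 6.66 (SE 1.43). Members of the MYB family went both ways, and Sobic.002G165300 had 216, 102 and 155 CPM in severe, against 5.93, 5.53 and 3.66 CPM in moderate with a log2 change of 4.97 (SE 1.07). Sobic.009G253300 of the same family had 0.0963, 0.054 and 0 CPM in severe, against 52, 42.7 and 49.7 CPM in moderate, a pooled 2 counts in severe against 3954 in moderate. The ratio, moderate over severe, was 1102 (95% counting interval 304.7 to 9099).

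The series title names ABA synthesis, breakdown and signalling, and no label in the table marks an ABA gene as such. Type 2C protein phosphatases (PP2C), the family of the ABA co-receptors that brake ABA signalling and are themselves induced by ABA, had 27 of 71 tested members higher and 14 lower, turning to 18 and 21 under total-count scaling. The lower members were 8, 4 and 4 without moderate replicates 1, 2 and 3. The PP2C gene Sobic.003G242200 (chromosome 3, 58153721 to 58167558) had 129, 86.7 and 124 CPM in severe, against 1.3, 2.46 and 1.12 CPM in moderate. The severe libraries lay within a narrow range far above moderate, with a log2 change of 6.11 (SE 1.26; edgeR adjusted p = 0.000267). Likewise Sobic.006G018400 had 108, 95.1 and 79.7 CPM in severe, against 3.32, 4.23 and 2.24 CPM in moderate, with a log2 change of 4.85 (SE 1.00; edgeR adjusted p = 0.000267). Sobic.010G062500 fell and had 0.0963, 0.432 and 0.585 CPM in severe, against 30.4, 41.3 and 51.7 CPM in moderate, a log2 change of -6.68 (SE 1.44; edgeR adjusted p = 0.000398). Carotenoid-cleaving dioxygenases (label RPE65), the family that holds the 9-cis-epoxycarotenoid dioxygenases of ABA synthesis, had only 4 of 13 genes with enough reads. Of these 1 was higher and 2 lower, and the lower count was 1 without severe replicates 1 or 3 or moderate replicates 1 or 2, while the higher count was 0 without severe replicate 2 or any moderate replicate. Sobic.004G268500 of this family had 25.8, 100.3 and 5.97 CPM in severe, against 410.1, 435 and 457 CPM in moderate, not overlapping, at a log2 change of -3.30 (SE 1.23) that lost its call without severe replicate 1.

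Among families of stress protection and redox balance, universal stress proteins and pyridine nucleotide-disulphide oxidoreductases had most of their tested members higher in severe leaves, and glutathione S-transferases did not. Universal stress proteins (Usp), small nucleotide-binding proteins that accumulate under many stresses, had 14 of 23 tested members higher and 3 lower, with a median of 2.24, the second highest of the 226 families with at least 8 tested genes. Pyridine nucleotide-disulphide oxidoreductases (Pyr_redox_2), which include the enzymes that recycle ascorbate and glutathione, had 12 of 20 higher and 1 lower, with a median of 1.75. Glyoxalase-domain genes, whose enzymes clear the toxic sugar by-product methylglyoxal, had 5 of 9 higher and 2 lower. The list of glutathione S-transferases had 10 of 40 tested members higher and 8 lower. Transferases with the label GST_N had 7 of 30 higher and 5 lower, turning to 5 and 6 under total-count scaling. Under that scaling the universal stress proteins were 11 higher and 3 lower, and the oxidoreductases 8 higher and 4 lower. The lower oxidoreductases were 4 without severe replicate 1 and 2 without severe replicate 3, the lower glyoxalase genes 1 or 0 without a moderate replicate, the higher transferases 11 without severe replicate 3 and the lower ones 2 without moderate replicate 1.

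The universal stress protein gene Sobic.009G159400 (chromosome 9, 51705709 to 51708737) had 107, 86.3 and 96.5 CPM in severe, against 11.5, 10.5 and 13.9 CPM in moderate. Replicates of both groups were close, and the log2 change was 3.01 (SE 0.65; edgeR adjusted p = 0.000403). Sobic.001G363100 had 109, 61.2 and 28.7 CPM in severe, against 0.252, 0.171 and 0.475 CPM in moderate, a log2 change of 7.76 (SE 1.72), and was close to silent in moderate leaves. The oxidoreductase Sobic.007G035700 had 166, 107 and 148 CPM in severe, against 15.7, 8.33 and 12.6 CPM in moderate, with a log2 change of 3.52 (SE 0.81; edgeR adjusted p = 0.000612). The glyoxalase gene Sobic.009G063301 had 3077, 952 and 293 CPM in severe, against 44.2, 29.6 and 43.7 CPM in moderate. Its level was high in severe replicate 1 and lower in the other severe libraries, all above moderate, with a log2 change of 5.20 (SE 1.52; edgeR adjusted p = 0.00331). Catalase breaks down hydrogen peroxide, and of 3 tested catalase genes Sobic.010G274500 was called, with 2042, 947 and 875 CPM in severe, against 132, 141 and 158 CPM in moderate and a log2 change of 3.16 (SE 0.87; edgeR adjusted p = 0.0021). Without severe replicate 1, 2 of the 3 catalase genes were higher. Of 5 tested alternative oxidases, mitochondrial enzymes that bypass the proton-pumping part of respiration, 3 were higher and 0 lower (1 lower without any 1 severe replicate or moderate replicate 3). The oxidase Sobic.004G270500 had 496, 309 and 271 CPM in severe, against 53.2, 56.5 and 53.2 CPM in moderate, a log2 change of 2.72 (SE 0.68). Aldehyde dehydrogenases, a family that removes reactive aldehydes, had 4 of 14 tested members higher and 3 lower, turning to 3 and 6 under total-count scaling. They were 5 higher and 5 lower without severe replicate 3. Sobic.009G212600 of this family had 432, 299 and 302 CPM in severe, against 27.4, 21.5 and 25.2 CPM in moderate and a log2 change of 3.80 (SE 0.83), while Sobic.003G203600 and Sobic.002G426100 were called lower.

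Ion transport families changed in both directions. Cation/proton antiporters (Na_H_Exchanger), the family of the sodium exporters of the plasma membrane and vacuole, had 5 of 13 tested members higher and 2 lower, turning to 3 and 4 under total-count scaling. Potassium transporters (K_trans) had 10 of 22 higher and 7 lower, turning to 6 and 9. P-type cation pumps (Cation_ATPase_C), which include calcium pumps, had 8 of 13 higher and 4 lower, turning to 3 and 4. Calcium and cation exchangers (Na_Ca_ex) had 6 of 13 higher and 1 lower, equal at 1 and 1 under total-count scaling, and chloride channels and exchangers (Voltage_CLC) had 7 of 10 higher and 1 lower, or 3 and 1 under total-count and 4 and 1 under upper-quartile scaling. Leaving out 1 library lowered several of these counts, as leaving out a moderate library did for calls over all genes. The higher chloride genes were 4 without severe replicate 2 or any moderate replicate, the higher calcium exchangers 3 and 2 without moderate replicates 1 and 3, the lower potassium transporters 4 without moderate replicates 1 or 2, and the lower pumps 2 without moderate replicate 3.

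The antiporter Sobic.001G522100 (chromosome 1, 78715630 to 78722779) had 173, 82.8 and 84 CPM in severe, against 15.2, 19.6 and 20.3 CPM in moderate. Every severe library was above every moderate one, with a log2 change of 2.62 (SE 0.69; edgeR adjusted p = 0.00161). Another antiporter, Sobic.006G271800, had 45.7, 72.7 and 72 CPM in severe, against 198, 145 and 167 CPM in moderate, lower in each severe library, with a log2 change of -1.42 (SE 0.45). The potassium transporter Sobic.010G112800 had 77.1, 61.2 and 33.7 CPM in severe, against 7.19, 10.4 and 7.6 CPM in moderate and a log2 change of 2.77 (SE 0.71). Its relative Sobic.002G001800 was close to silent in severe leaves, with 0.193, 0.162 and 0.0585 CPM in severe, against 41.8, 78 and 29.3 CPM in moderate and a log2 change of -8.50 (SE 1.77; edgeR adjusted p = 0.000284). The cation exchanger Sobic.008G179200 had 1419, 314 and 239 CPM in severe, against 5.64, 5.94 and 4.41 CPM in moderate. It was high in all severe libraries, highest in replicate 1, and even and low in moderate ones, with a log2 change of 6.95 (SE 1.74; edgeR adjusted p = 0.00109). The chloride transport gene Sobic.004G075800 had 365, 184 and 127 CPM in severe, against 20, 15.7 and 13.2 CPM in moderate, a log2 change of 3.79 (SE 0.95). Mitochondrial carriers, which pass metabolites across the inner mitochondrial membrane, had 29 of 61 higher and 8 lower (5 lower without moderate replicates 2 or 3), or 13 and 10 under total-count scaling. The carrier Sobic.003G153300 had 157, 69.5 and 80.4 CPM in severe, against 4.67, 5.26 and 4.21 CPM in moderate and a log2 change of 4.44 (SE 0.99).

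Most tested SPX genes, a family of phosphate sensing, were lower in severe leaves. The SPX domain binds inositol pyrophosphates and reports the phosphate status of the cell, and stand-alone SPX proteins are induced when phosphate runs short. Of 9 tested SPX genes 8 were lower in severe and 0 higher, with a median of -4.21, the lowest of the 226 families. This count was 7 or 8 without any 1 library. It was 9 under total-count scaling, which moves genes in general towards lower. Sobic.001G259100 (chromosome 1, 31011171 to 31012741) had 0.193, 0.216 and 0.41 CPM in severe, against 497, 28.5 and 71.4 CPM in moderate. The moderate libraries differed widely, with replicate 1 the highest, but every one lay far above the severe libraries, at a log2 change of -9.45 (SE 2.52; edgeR adjusted p = 0.00172). Sobic.003G183600 had 0, 0.486 and 0.293 CPM in severe, against 314, 35.5 and 77.3 CPM in moderate, the same order of moderate libraries, with a log2 change of -8.92 (SE 2.30). Sobic.004G084900 had 3.95, 2.21 and 3.69 CPM in severe, against 89.7, 32.7 and 59.6 CPM in moderate, with a log2 change of -4.21 (SE 1.01; edgeR adjusted p = 0.000785), and Sobic.003G101000 had 0.77, 1.24 and 0.995 CPM in severe, against 29.1, 9.46 and 17.4 CPM in moderate. Sobic.010G138800 had 0.193, 0.809 and 0 CPM in severe, against 82.7, 24.5 and 43.3 CPM in moderate, at a log2 change of -7.13 (SE 1.89). Sobic.010G185200 overlapped between groups, with 52.4, 24.3 and 28.8 CPM in severe, against 191, 43.1 and 87.6 CPM in moderate, and Sobic.001G028500 was not called, with 54.6, 32.6 and 35.2 CPM in severe, against 45.8, 33.2 and 47.1 CPM in moderate. In the deposited FPKM values, reads per gene length and scaled library size, Sobic.004G084900 averaged 1.44 ± 0.117 in control, 15.7 ± 7.51 in moderate and 0.922 ± 0.309 in severe (SD, n = 3 each), so that its moderate libraries lay above both other groups.

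Among other carriers, DUF6 and OPT genes were also more often lower than higher. Genes of the drug and metabolite transporter family DUF6 had 20 of 31 tested members lower and 3 higher, with a median of -3.11. Total-count scaling, which moves genes in general towards lower, gave 24 lower and 2 higher. Oligopeptide and metal-chelate transporters (OPT) had 8 of 18 lower and 1 higher (4 higher without severe replicate 3). Sulfate transporters had 5 of 10 lower and 3 higher (1 higher without moderate replicate 3). Amino acid transporters (Aa_trans) had 19 of 49 lower and 12 higher, and sugar transporters (Sugar_tr) 24 of 62 higher and 23 lower, or 17 and 27 under total-count and 20 and 25 under upper-quartile scaling. With limma on the deposited FPKM the amino acid transporters were 10 lower and 10 higher. The DUF6 gene Sobic.002G207700 (chromosome 2, 59920638 to 59924304) had 0.77, 3.94 and 2.63 CPM in severe, against 121, 142 and 145 CPM in moderate. The moderate libraries were close together and the severe ones all far below, with a log2 change of -5.76 (SE 1.33; edgeR adjusted p = 0.000615). The sulfate transporter Sobic.007G123500 had 4.52, 3.83 and 5.68 CPM in severe, against 54.4, 71.6 and 68.1 CPM in moderate, with a log2 change of -3.79 (SE 0.80; edgeR adjusted p = 0.000313). The amino acid transporter Sobic.005G072300 rose and had 242, 208 and 214 CPM in severe, against 14.7, 12.1 and 9.97 CPM in moderate, a log2 change of 4.17 (SE 0.86). Its relative Sobic.009G142800 had 0.193, 0.216 and 0.117 CPM in severe, against 42.4, 16 and 48.1 CPM in moderate, a log2 change of -7.63 (SE 1.64). For the sugar transporter Sobic.005G196300 no severe library held a count, and moderate libraries had 17.2, 18.8 and 17.7 CPM. Set against 3 counts over the severe group, its level was at least 275.4-fold higher in moderate.

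**Figure D4:**
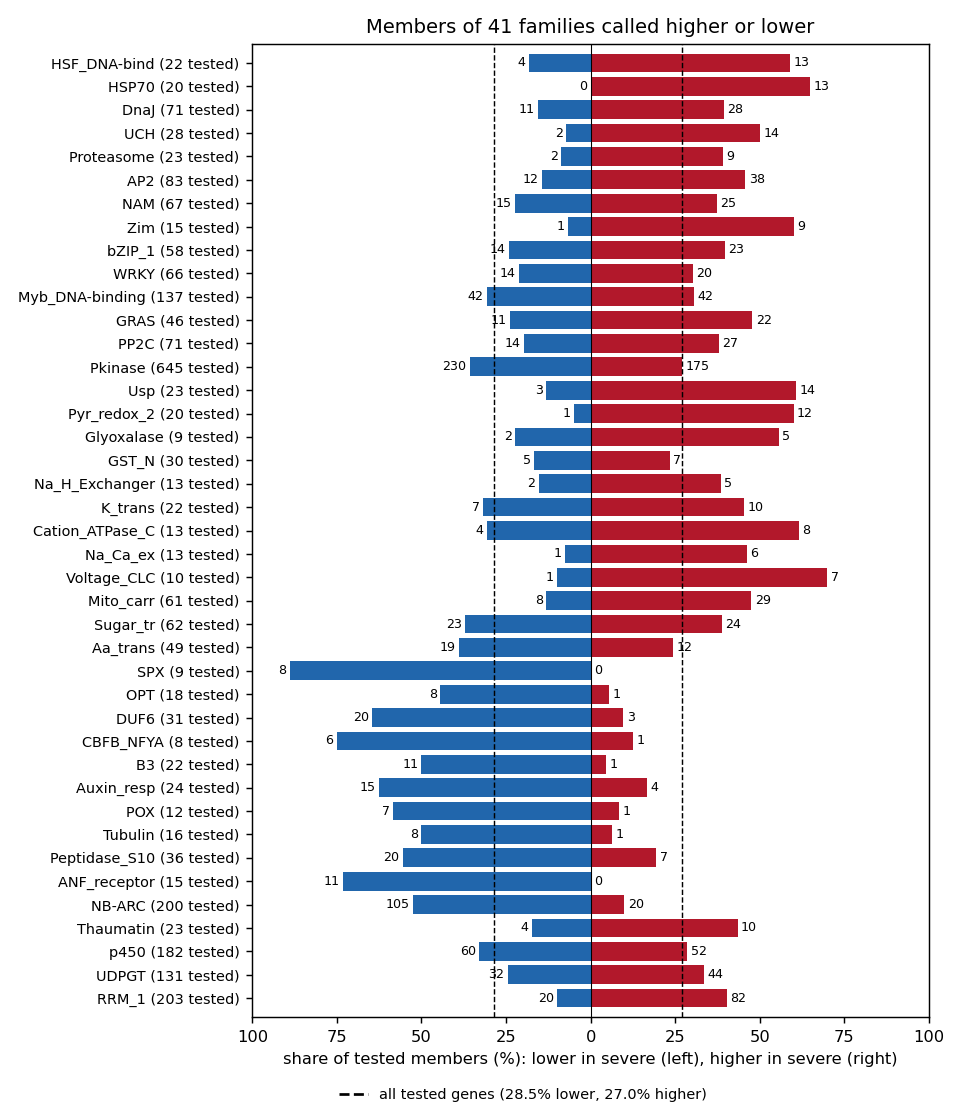
Share of tested members (%) called higher in severe (red, right) and lower (blue, left) in each of 41 selected family labels, with the number called at each bar and dashed lines at the shares of all tested genes, 27.0% higher and 28.5% lower. Among these 41, chloride transporters (7 of 10) and HSP70 (13 of 20) reach furthest right, and SPX, CBFB_NFYA, ANF_receptor and DUF6 furthest left. The balance of J-domain, proteasome, NAC, bZIP, WRKY, PP2C, antiporter, potassium transporter, cation pump, sugar transporter, glutathione transferase, UDPGT and RRM_1 genes turns to more members lower under total-count scaling. Of all tested genes 3253 are higher and 8270 lower under that scaling.

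Auxin response factors, BEL1-like and B3 factors, nuclear factor Y subunits and tubulins were more often lower than higher in severe leaves, while GRAS factors were 22 higher and 11 lower of 46, equal at 15 and 15 under total-count scaling. Other families of growth did not share this balance, with kinesins 8 higher and 8 lower of 31 (3 and 12 under total-count scaling) and actins 4 higher and 1 lower of 18 (4 and 4). Auxin response factors (Auxin_resp), which carry auxin signals to growth genes, had 15 of 24 tested members lower and 4 higher, with a median of -1.27. BEL1-like homeodomain factors (POX), which act in meristems and organ boundaries, had 7 of 12 lower and 1 higher. B3 factors had 11 of 22 lower and 1 higher, and A subunits of the nuclear factor Y complex (CBFB_NFYA) had 6 of 8 lower and 1 higher. Tubulins, the subunits of microtubules, had 8 of 16 lower and 1 higher, and 4 and 5 lower without moderate replicates 2 and 3. The lower auxin response factors were 9 without moderate replicate 3 and the higher ones 2 without moderate replicates 1 or 3. The higher POX gene lost its call without severe replicate 2 or any moderate replicate, and the higher B3 genes were 3 without severe replicate 1 and 2 without any moderate replicate. Under total-count scaling these families kept more members lower than higher, which the general shift of that scaling towards lower favours.

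The auxin response factor Sobic.009G231800 (chromosome 9, 57188679 to 57194389) had 1.83, 1.83 and 1.7 CPM in severe, against 21.6, 33.7 and 30.5 CPM in moderate. The severe libraries were nearly equal and all far below moderate, with a log2 change of -4.00 (SE 0.86; edgeR adjusted p = 0.000385). A relative, Sobic.010G073600, rose and had 47.5, 26.4 and 46.5 CPM in severe, against 1.35, 1.43 and 1.63 CPM in moderate, a log2 change of 4.76 (SE 1.00; edgeR adjusted p = 0.000313). The POX gene Sobic.001G525900 had 26.3, 31.8 and 14.1 CPM in severe, against 188, 279 and 254 CPM in moderate, with a log2 change of -3.32 (SE 0.82). The tubulin gene Sobic.010G224900 (chromosome 10, 56690924 to 56694454) had 28.5, 47.5 and 47.2 CPM in severe, against 305, 435 and 447 CPM in moderate. No severe library came near the lowest moderate one, and the log2 change was -3.27 (SE 0.78; edgeR adjusted p = 0.000793). Sobic.001G107100, another tubulin, had 12.5, 6.1 and 7.14 CPM in severe, against 82.9, 176 and 211 CPM in moderate, a log2 change of -4.20 (SE 1.02). The nuclear factor Y gene Sobic.001G340200 had 7.41, 14.5 and 10.9 CPM in severe, against 48.3, 38.7 and 48.1 CPM in moderate, with a log2 change of -2.04 (SE 0.56), while the higher member, Sobic.008G168300, had 114, 68.3 and 75.9 CPM in severe, against 21.4, 21.1 and 20.1 CPM in moderate. CCT-domain genes, the family of CONSTANS-like clock and flowering regulators, had 7 of 25 tested members higher and 9 lower, or 4 and 12 under total-count scaling. Sobic.009G259100 of this family had 25.8, 20.1 and 24.9 CPM in severe, against 167, 211 and 237 CPM in moderate and a log2 change of -3.12 (SE 0.70; edgeR adjusted p = 0.000504). Its relative Sobic.004G211200 was called higher, with deposited FPKM of 19.0 ± 1.85 in moderate and 145 ± 96.4 in severe (SD, n = 3 each).

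NB-ARC and ANF_receptor genes were more often lower than higher in severe leaves. NB-ARC genes encode the intracellular receptors that recognise pathogen effectors. Of 200 tested 105 were lower and 20 higher, with a median of -1.51. The higher ones were 13 without moderate replicate 3. Total-count scaling, which moves genes in general towards lower, gave 119 lower and 10 higher. The deposited counts cover 324 NB-ARC genes, and 200 of these passed the filter on low counts. Genes with an ANF_receptor domain, which in plants is the ligand-binding part of glutamate receptor-like channels, had 11 of 15 tested members lower and 0 higher, with a median of -2.20 (2 higher without severe replicate 1). Their summed level was 49.8, 104 and 94.3 CPM in severe, against 562, 618 and 591 in moderate. Thaumatin-like proteins, many of which are antifungal or osmotin-related, had 10 of 23 higher and 4 lower (7 lower without severe replicate 1), with a median of 2.04.

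The NB-ARC gene Sobic.005G222900 (chromosome 5, 70950646 to 70956228) had 0.0963, 0.108 and 0.234 CPM in severe, against 45.5, 62 and 68.1 CPM in moderate. It was nearly off in every severe library, with a log2 change of -8.54 (SE 1.61; edgeR adjusted p = 0.000267). By contrast Sobic.010G276800 had 263, 195 and 194 CPM in severe, against 19.9, 26 and 23.7 CPM in moderate, a log2 change of 3.23 (SE 0.72; edgeR adjusted p = 0.000476). The channel gene Sobic.010G231500 had 1.54, 9.55 and 3.28 CPM in severe, against 187, 174 and 188 CPM in moderate, with a log2 change of -5.24 (SE 1.33), and Sobic.006G193200 had 0.963, 19.2 and 3.51 CPM in severe, against 165, 219 and 168 CPM in moderate, with a log2 change of -4.53 (SE 1.48). Severe replicate 2 was the highest severe library in both and still far below moderate. The thaumatin-like gene Sobic.003G331700 (chromosome 3, 65644339 to 65645493) had 5434, 1692 and 2114 CPM in severe, against 3.78, 4.4 and 4.34 CPM in moderate. It was abundant in all severe libraries and even and low in moderate ones, with a log2 change of 9.52 (SE 2.09; edgeR adjusted p = 0.000427). The thaumatin-like gene Sobic.001G439200 had 0.193, 0.162 and 0.176 CPM in severe, against 14.3, 24.6 and 22.1 CPM in moderate, a log2 change of -6.81 (SE 1.38; edgeR adjusted p = 0.000267). Protein kinases with the label Pkinase, a family of receptors and signal relays, had 175 of 645 tested members higher and 230 lower, or 103 and 295 under total-count scaling, a balance that turned to 147 and 128 with limma on the deposited FPKM. Sobic.001G332900 of this family had 99.1, 93.2 and 110.1 CPM in severe, against 1.05, 1.09 and 1.32 CPM in moderate, with a log2 change of 6.44 (SE 1.17; edgeR adjusted p = 0.000267), and Sobic.003G375800 had 0.289, 0.378 and 0.293 CPM in severe, against 35.2, 40.8 and 33.5 CPM in moderate, with a log2 change of -6.79 (SE 1.28; edgeR adjusted p = 0.000267).

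**Figure D5:**
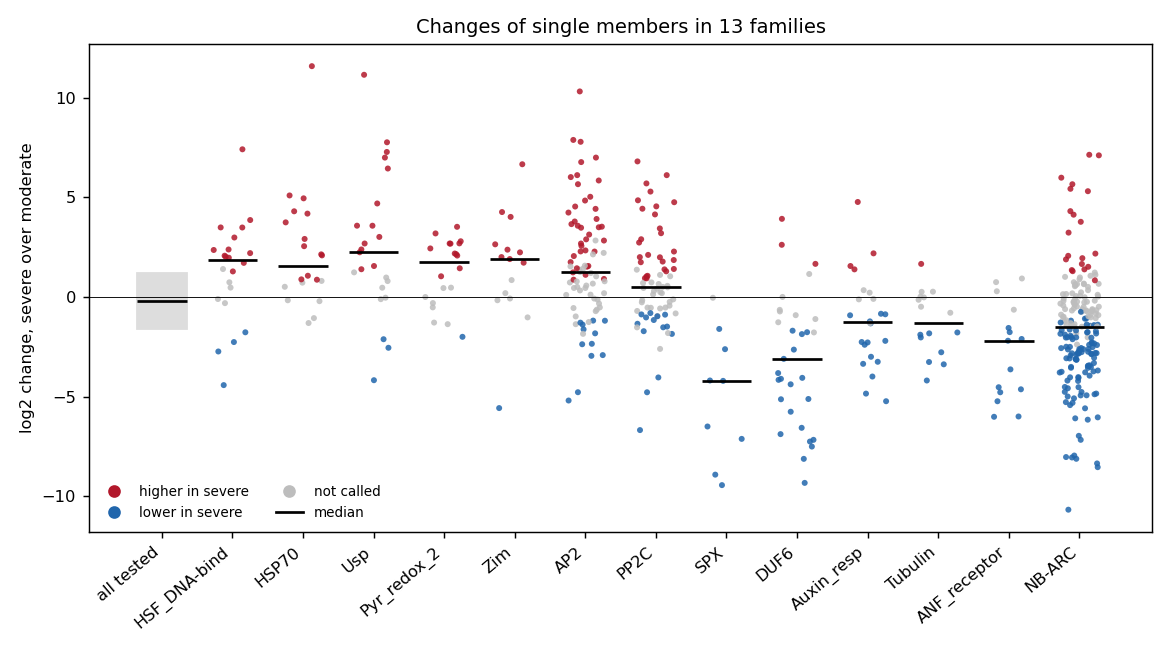
Log2 change, severe over moderate, of each tested member of 13 families, with members called higher in red, called lower in blue and not called in grey, a bar at the family's median, and the grey box at the middle 50% of all tested genes. The medians of heat shock factors, HSP70 and universal stress proteins are 1.84, 1.57 and 2.24, those of SPX and DUF6 are -4.21 and -3.11, and PP2C, AP2 and NB-ARC members spread in both directions. The balance of PP2C members turns under total-count scaling, where 3253 of all tested genes are higher and 8270 lower.

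Specialised metabolism changed gene by gene. Cytochromes P450, oxidases of hormone and defence compound synthesis, had 52 of 182 tested members higher and 60 lower. Glycosyltransferases with the label UDPGT had 44 of 131 higher and 32 lower, turning to 26 and 38 under total-count scaling. Chalcone and stilbene synthases had 6 of 10 lower and 2 higher (2 lower without moderate replicate 1). The P450 gene Sobic.007G003500 (chromosome 7, 320663 to 323443) had 5026, 2024 and 39.0 CPM in severe and no count in any moderate library. Against 3 counts over the moderate group its pooled level was at least 54075-fold higher, although severe replicate 3 was far below the others. A second P450, Sobic.002G272700 (chromosome 2, 65585643 to 65588410), had no count in severe and 162, 146 and 113 CPM in moderate, at least 2130-fold higher in moderate. The glycosyltransferase Sobic.002G413200 had 70.9, 34.5 and 67.6 CPM in severe and no count in moderate, at least 1514-fold higher. The lipoxygenase Sobic.004G078600, of the family that makes the precursors of jasmonate and leaf volatiles, had 166, 172 and 68.3 CPM in severe, against 2853, 3842 and 3660.0 CPM in moderate. All severe libraries lay far below moderate, with a log2 change of -4.67 (SE 1.20; edgeR adjusted p = 0.00136). A second lipoxygenase, Sobic.001G125900, had 538, 650.5 and 631 CPM in severe, against 57.5, 58.3 and 76.7 CPM in moderate, with a log2 change of 3.24 (SE 0.75; edgeR adjusted p = 0.000645). The chalcone synthase family gene Sobic.005G136200 had 6.74, 3.62 and 27.7 CPM in severe, against 472, 423 and 233 CPM in moderate, a log2 change of -4.89 (SE 1.41).

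Several of the largest shifts of abundant labelled transcripts were in metabolic enzymes. Sobic.001G089000, a glycoside hydrolase of family GH3, whose enzymes release sugars from cell walls and glucosides, had 11375, 4818 and 1779 CPM in severe, against 0.673, 9.87 and 20.7 CPM in moderate. It was spread in both groups without overlap, which its choice among the largest gains required, with a log2 change of 9.17 (SE 2.67; edgeR adjusted p = 0.00323). Its neighbour Sobic.001G089100 had 4231, 2199 and 1773 CPM in severe, against 39.1, 87.2 and 86.5 CPM in moderate, a log2 change of 5.27 (SE 1.33). Because the pair lies side by side with the same label, how the authors' counting shared reads between them is uncertain. The metallophosphatase Sobic.008G189500, of a superfamily that includes the purple acid phosphatases, had 3459, 5058 and 2914 CPM in severe, against 164, 152 and 226 CPM in moderate and a log2 change of 4.40 (SE 1.12; edgeR adjusted p = 0.00126). Its deposited FPKM averaged 1849 ± 549 in control, 93.4 ± 20.1 in moderate and 2127 ± 624 in severe (SD, n = 3 each), with moderate as the low group of the 3. The gene Sobic.001G193600 (Cys_Met_Meta_PP, enzymes of cysteine and methionine metabolism) had 9533, 1814 and 689 CPM in severe, against 162, 118 and 151 CPM in moderate and a log2 change of 4.80 (SE 1.59). Among the falls, the aldo-keto reductase Sobic.006G140700 had 5.39, 38.2 and 2.75 CPM in severe, against 644, 720.4 and 1026 CPM in moderate, a log2 change of -5.68 (SE 1.72). The CBS-domain gene Sobic.006G013800 had 59.3, 49.9 and 3.63 CPM in severe, against 1005, 736 and 988 CPM in moderate, a log2 change of -4.60 (SE 1.46). The major facilitator carrier Sobic.004G282900 had 0.0963, 0.216 and 0.117 CPM in severe, against 883, 316 and 439 CPM in moderate, with a log2 change of -11.78 (SE 2.33; edgeR adjusted p = 0.000267), and its deposited FPKM averaged 1.33 ± 0.948 in control, 97.6 ± 54.1 in moderate and 0.0272 ± 0.0114 in severe (SD, n = 3 each). Moderate was thus the high group of the 3.

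Genes without a label were called about as often as all tested genes (55.5%), with 7594 of 13928 tested. The ones named here were chosen after their values were seen. Sobic.002G055700 (chromosome 2, 5306080 to 5307672) had 59828, 32899 and 19001 CPM in severe, against 33.8, 8.7 and 8.82 CPM in moderate. It alone took 3.03%, 2.79% and 1.82% of all assigned reads in severe replicates 1 to 3, and its log2 change was 11.09 (SE 3.03; edgeR adjusted p = 0.00204). Its neighbour Sobic.002G055600 had 41626, 10515 and 5673 CPM in severe, against 35.9, 6.35 and 11.2 CPM in moderate, a log2 change of 10.08 (SE 2.83). Sobic.005G224500 had 37006, 19498 and 6658 CPM in severe, against 109, 147 and 103 CPM in moderate and Sobic.003G117000 had 22249, 12338 and 14403 CPM in severe, against 753, 555 and 608 CPM in moderate, with log2 changes of 7.46 (SE 2.11) and 4.68 (SE 1.41). On the falling side Sobic.002G384400 had 148, 919 and 202 CPM in severe, against 7159, 8228 and 9588 CPM in moderate, with a log2 change of -4.30 (SE 1.43; edgeR adjusted p = 0.00821), and Sobic.003G191000 had 129, 439 and 139 CPM in severe, against 3286, 2949 and 4123 CPM in moderate, with a log2 change of -3.87 (SE 1.15). Severe replicate 2 was the highest severe library in both. The deposited FPKM of Sobic.002G384400 averaged 5345 ± 569 in control, 5431 ± 758 in moderate and 293 ± 293 in severe (SD, n = 3 each), so that control and moderate were alike in mean and severe was low. For Sobic.001G177000 they averaged 10999.5 ± 2106 in control, 2084 ± 743 in moderate and 98.6 ± 117 in severe, highest in mean in control and lowest in severe.

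Families of RNA handling and energy metabolism changed in both directions. Genes with an RNA recognition motif (RRM_1), the domain of splicing and RNA-binding proteins, had 82 of 203 tested members higher and 20 lower, turning to 31 and 36 under total-count scaling, and 9, 8 and 8 lower without moderate replicates 1, 2 and 3. The RRM gene Sobic.002G387200 had 281, 166 and 154 CPM in severe, against 19.9, 18.4 and 18.5 CPM in moderate, with a log2 change of 3.40 (SE 0.78; edgeR adjusted p = 0.000595). Pentatricopeptide repeat genes (PPR), which process RNA in chloroplasts and mitochondria, had 18 of 66 lower and 8 higher, or 25 and 3 under total-count scaling. The lower ones were 8 and 7 without moderate replicates 2 and 3, and the higher ones 3 without moderate replicates 1 or 3. The repeat gene Sobic.001G520700 had 2.02, 1.46 and 1.05 CPM in severe, against 8.66, 11.4 and 8.44 CPM in moderate, with a log2 change of -2.66 (SE 0.73). Phosphofructokinases, which commit sugars to glycolysis, had 6 of 15 higher and 3 lower, turning to 4 and 5 under total-count scaling, and 1 lower without severe replicate 2 or moderate replicates 2 or 3. Sobic.009G071800 of this family had 819.8, 336 and 517 CPM in severe, against 10.9, 6.04 and 11.5 CPM in moderate. Every severe library lay far above moderate, at a log2 change of 5.88 (SE 1.31; edgeR adjusted p = 0.00049). The enoyl-CoA hydratase Sobic.003G025000, of a family that acts in fatty acid breakdown, had 313, 117 and 70.1 CPM in severe, against 8.16, 4.95 and 5.73 CPM in moderate, with a log2 change of 4.73 (SE 1.21). Its relative Sobic.004G297500 had 0.674, 4.59 and 5.5 CPM in severe, against 54.5, 41.6 and 46.7 CPM in moderate, with a log2 change of -3.71 (SE 1.08).

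Deposited FPKM of further genes place the control plants beside both stressed groups. The HSP70 gene Sobic.001G418600 averaged 0.0153 ± 0.0155 in control, 0.0415 ± 0.00652 in moderate and 143 ± 79.5 in severe (SD, n = 3 each). The heat shock factor Sobic.001G057700 averaged 6.07 ± 1.05 in control, 6.5 ± 0.684 in moderate and 103 ± 38.3 in severe. Severe was the high group for both genes. The PP2C gene Sobic.003G242200 averaged 0.00607 ± 0.00438 in control, 0.112 ± 0.0495 in moderate and 8.45 ± 2.15 in severe, and Sobic.006G018400 averaged 0.00537 ± 0.00465 in control, 0.498 ± 0.152 in moderate and 15.7 ± 3.76 in severe, lowest in mean in control and highest in severe. The bZIP gene Sobic.001G044300 averaged 0.0246 ± 0.0101 in control, 0.0942 ± 0.0246 in moderate and 17.4 ± 3.6 in severe, in the same order. The lipoxygenase Sobic.004G078600 averaged 925 ± 138 in control, 819 ± 119 in moderate and 35.4 ± 16.8 in severe. The DUF6 gene Sobic.002G207700 averaged 16.9 ± 2.09 in control, 35.3 ± 3.07 in moderate and 0.667 ± 0.42 in severe, with moderate the highest of the 3, and the MYB gene Sobic.009G253300 averaged 0.664 ± 0.286 in control, 22 ± 2.33 in moderate and 0.0261 ± 0.0262 in severe, again highest in moderate. The P450 gene Sobic.002G272700 averaged 131 ± 12.2 in control, 48.4 ± 8.84 in moderate and 0 ± 0 in severe and was listed at 0 in each severe library.

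The authors' deposited table gives its own fold changes for the same comparison. It holds 14597 calls at an adjusted p under 0.05, 7303 higher and 7294 lower in severe. Of the 12085 calls made here 11990 were also called in the authors' deposited table in the same direction. The log2 changes of the authors' deposited table and those computed here correlated across the 21779 tested genes at r = 0.999, and genes are not independent replicates. Both results come from the same libraries, so their overlap is not an independent check.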

How the data were processed

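Leaf RNA of 3 severe and 3 moderate samples was compared, with 3 biological replicates per group per the series design. The authors deposited raw read counts per gene, whole numbers without normalisation, and FPKM values for each library. The submitters' processing notes name HISAT2 2.0.5, a read aligner, and DESeq2 1.20.0, without their roles. The authors' log2 fold changes and adjusted p-values are named in the file header. No source used here gives the counter, genome build or strandedness, so reads of overlapping antisense genes and of near-identical copies may be shared between genes. Chromosome positions and gene IDs are those of the deposited table.

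The 6 libraries alone set the filter (filterByExpr), the TMM scaling and the spread. The counts were fitted in R 4.3.3 with edgeR 4.0.16 (quasi-likelihood F-test, 2-sided, Benjamini-Hochberg adjustment over 21779 genes, threshold 0.05). Standard errors (SE) were taken from each log2 change and its p-value, as size over normal quantile. They restate the p-value of the F-test and are not a separate measure of the spread between replicates. Where a group had no count, the other group was set against 3 counts over the group, a bound for counting error only, and where it had 1 to 3 counts the ratio has a 95% counting interval. Replicates of each group differed by more than counting noise (chi-square per degree of freedom 27.7 to 308). The deposited FPKM were used as means per group and in 1 alternative, and the authors' fold changes and p-values only for counts and 1 correlation. No batch is given in the labels.

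The members and lists were chosen with earlier results of these data known. Named genes are, among called, labelled genes whose groups did not overlap and whose mean reached 5 CPM, the 8 largest log2 rises and falls and the 6 largest gains and losses in mean CPM. For these genes the lack of overlap was a condition of choice, not a result. From each list or family came the 2 called members of lowest adjusted p per direction, with the same minimum of 5 CPM. The text prints a part of these genes, picked with their values known. The unlabelled genes and the SPX and ANF_receptor genes beyond that rule were added after their values were seen. The lists had 64 entries, of which 29 held no tested gene, because gene descriptions could not be joined to these IDs. The families were then taken by label. Promoter motifs, planned as a description, were not analysed here. Alternatives were DESeq2 1.42.0, limma 3.58.1 with voom weights, limma on log2(FPKM + 1), 3 other scalings, 2 other filters, all 9 libraries in the fit, a test against a 1.5-fold change, the replicate number as a block, and leaving out each library.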

Additional observations from a re-analysis of the deposited data

How the results depend on the processing

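The number of genes called higher, 5878, was 3253 under total-count scaling, the value that moved by over 1.5 times. The other counts, of all calls, of calls higher and lower and of calls with at least a 2-fold change, stayed within 1.5 times of those reported under the alternatives run, leave-one-out fits included. Leaving out 1 library gave 8537 to 13079 calls against 12085, with 4290 to 6277 higher and 4247 to 6802 lower. The lowest count came without moderate replicate 3 and the highest without severe replicate 1. With the replicate number as a block 11290 genes were called, 5240 higher and 6050 lower. Deviations from the group mean correlated between same-numbered severe and moderate libraries at r of 0.173, 0.0755 and 0.108. For every severe library this correlation was highest with the moderate library of its own number. That is a hint from the data, not from the design, so the numbers were not taken as pairs. DESeq2 called 14613 genes and limma on log2(FPKM + 1) called 9826, with 53.7% of the calls from FPKM higher. Of 312 named genes called, 264 stayed called in the same direction under every alternative that tested them, and 0 reversed. A gene that an alternative filtered out was not counted as lost there. In a single library 3 counts equal 0.102 to 0.289 CPM, and lower levels could not be read at this depth.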

Other observations

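Called genes also lay next to each other. A run was counted where at least 5 neighbouring tested genes of a chromosome were called in the same direction. How many runs arise without clustering, at shares of 27.0% higher and 28.5% lower, was not tested. The longest run held 12 lower genes on chromosome 10, from Sobic.010G118300 to Sobic.010G120200. Its median log2 change was -2.78, and its only labels were GRAS and UDPGT. The runs below were picked for their shared family labels. On chromosome 7, from 266369 to 345271, 7 neighbours from Sobic.007G002800 to Sobic.007G003600 were all higher in severe, 3 of them P450 genes and 1 an oxidase with the label FAD_binding_4, with a median log2 change of 6.92. On chromosome 5, from 70354157 to 70603175, 7 neighbours from Sobic.005G217700 to Sobic.005G219300 were all lower, 5 of them NB-ARC genes, with a median of -6.09. On chromosome 2, from 59997622 to 60139057, 7 neighbours from Sobic.002G208400 to Sobic.002G209400 were all lower, 4 of them ANF_receptor genes, with a median of -4.64. On chromosome 10, from 57346474 to 57509406, 9 neighbours from Sobic.010G230800 to Sobic.010G231700 were all lower, 3 of them ANF_receptor genes, with a median of -3.96. Neighbours of the same family can be near-identical copies, so reads may have been split between them, and this was not tested.

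Genes of chromosomes 5 and 8 were less often higher than those elsewhere. Of tested genes 21.6% were higher and 35.3% lower on chromosome 5, and 21.4% were higher and 31.4% lower on chromosome 8, against 25.6 to 29.4% higher on the other 8 chromosomes. Loci outside the reference annotation had 152 of 886 tested members higher and 318 lower. The label Transposase_21, carried here by such loci, had 7 of 8 tested members lower and 0 higher, with a median log2 change of -3.46.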
